A study of Mus musculus with 12 samples.

Results

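The proteasome genes of mouse 8-cell embryos were followed through the knockdown of NR5A2 and KLF5. They were chosen by name: every protein-coding gene whose symbol begins with Psma, Psmb, Psmc, Psmd, Psme, Psmf or Psmg and a number, pseudogenes left out. The rule gave 50 of the 55401 genes in the files. By role, 14 encode the constitutive subunits of the 20S core and 5 its inducible or tissue-restricted subunits, 17 the 19S regulatory particle, 4 the activators, 7 assembly chaperones and 1 an inhibitor. The other 2 carry a matching symbol, Psmc3ip and Psme2b.

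RNA-seq was made from 12 libraries of 10 pooled 8-cell embryos each, from B6129F1 females mated with B6CBAF1 males. Zygotes of every group received siRNA together with H2B-EGFP mRNA at 150 ng/µl: non-targeting siRNA at 15 µM (control, n = 2), siRNA against Nr5a2 at 5 µM (Nr5a2 KD, n = 3), siRNA against Klf5 at 10 µM (Klf5 KD, n = 3), or both targeting siRNAs (dKD, n = 4), for which the concentrations combined are not given. The treated groups are knockdowns in which some transcript remained, and the embryos of a pool cannot be told apart. What the study asked of these libraries is how NR5A2, an orphan nuclear receptor, and KLF5, a Krüppel-like factor, act together on embryonic genes.

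The proteasome degrades proteins that carry ubiquitin chains. Its barrel, the 20S core, is built of rings of alpha and beta subunits and holds the protease sites, and the 19S regulatory particle recognises, unfolds and feeds in the substrate with a ring of ATPases. Activators of the Psme family cap the same barrel without needing ubiquitin, and dedicated chaperones put both complexes together. In early embryos this machinery is known for clearing maternal proteins.

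The targeted genes checked the labels. Nr5a2 stood at 210 to 225 CPM (counts scaled to library size with TMM factors) in control, at 24.1 to 38.9 in Nr5a2 KD, at 25.3 to 33.9 in dKD and at 117 to 256 in Klf5 KD. Klf5 stood at 444 to 467 CPM in control, at 72.9 to 144 in Klf5 KD and at 40.0 to 82.2 in dKD, and it was also lower in Nr5a2 KD, at 109 to 159 (log2 fold change -1.68, adjusted p = 0.0013, edgeR's quasi-likelihood test). In Klf5 KD the difference of Klf5 itself from control, -2.03, did not pass (adjusted p = 0.0996, edgeR). The libraries held 6676683 to 12560926 counts on genes. Mitochondrially encoded genes took 12.9 to 13.2% of the counts in control and 4.41 to 12.8% elsewhere, and 5 libraries were under 10%: Nr5a2 KD replicate 3, Klf5 KD replicates 1 and 2, and dKD replicates 3 and 4. Of 8 markers of the 8-cell embryo 7 reached 1 CPM in each group, with Cdx2 below it, and Tfap2c, Tead4 and Dppa5a of that list were lower in Nr5a2 KD than in control. The 8 cumulus cell markers summed to 0.236 to 3.30 CPM per library, and at most 2 of them reached 1 CPM in a group. The 8 oocyte markers summed to 63.7 to 125 CPM. Of the oocyte list Nlrp5 was lower in dKD than in control (log2 fold change -1.17, adjusted p = 0.0324, edgeR). In pooled embryos fewer cells and less RNA per cell cannot be told apart.

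In control embryos the constitutive core gave the highest levels among the proteasome genes. Levels of different genes were compared as CPM per kb of exon. Among the alpha subunits Psma6 was highest at 936 CPM per kb and Psma7 lowest at 143. Among the beta subunits Psmb2 was highest at 674 and Psmb7, the trypsin-like protease subunit, lowest at 82.3 CPM per kb. The ATPases of the 19S particle ran from 13.5 CPM per kb for Psmc3 to 141 for Psmc6, and its other subunits from 6.41 for Psmd2, a large scaffold subunit, to 171 for Psmd7. The activators were all below the core, from 5.62 CPM per kb for Psme4 to 13.2 for Psme1. The chaperones ran from 3.85 for Psmd9 to 70.8 for Psmg2, and the inhibitor Psmf1 stood at 3.51 CPM per kb. The median of the alpha subunits, 239 CPM per kb, compares with 11.9 for the activators.

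**Figure D1:**
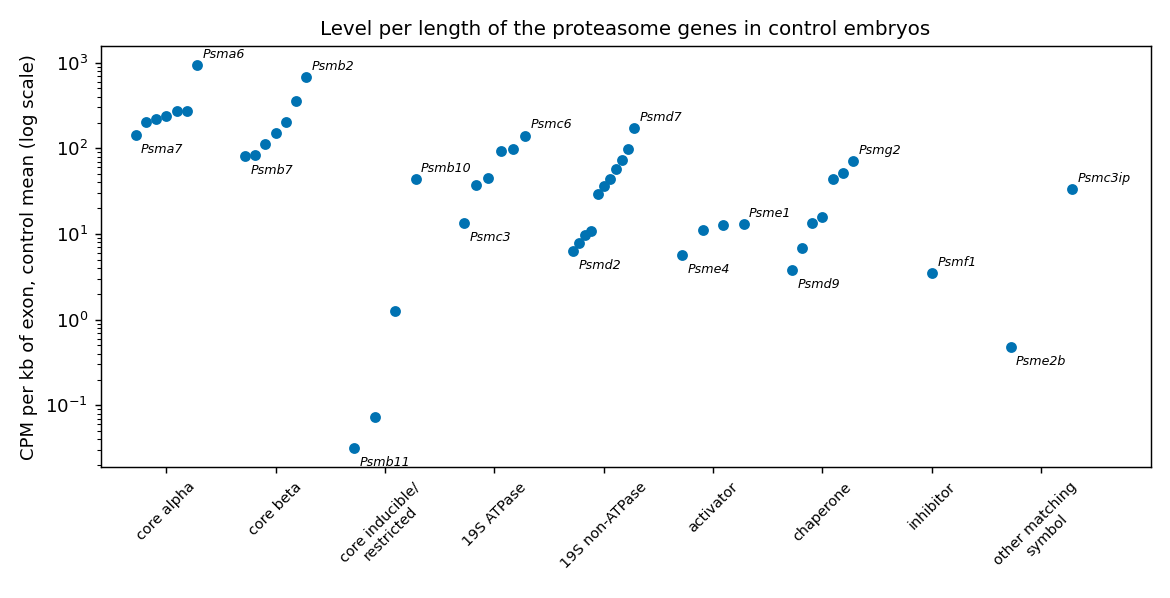
Level of each proteasome gene in control embryos, as the mean CPM of 2 libraries per kb of exon on a log axis, by role, with the highest and lowest gene of each role named. Core subunits lie between 82.3 and 936 CPM per kb and activators between 5.62 and 13.2. Psmb8, at 0 in both control libraries, is not drawn.

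Of the inducible and tissue-restricted core subunits, 1 of 5 was well expressed. Psmb10, the inducible trypsin-like subunit of the immunoproteasome, stood at 64.7 and 83.7 CPM in control, at 110, 97.3 and 47.2 in Nr5a2 KD, at 76.9, 77.7 and 101.6 in Klf5 KD and at 99.4, 74.2, 54.1 and 49.1 in dKD. These ranges overlap in all 4 groups, and Psmb10 passed the test in no comparison. The other inducible protease subunits were at or near 0: Psmb8 had at most 2.5 counts in a library and Psmb9 at most 12, and the thymus subunit Psmb11 at most 10. Psma8, the alpha subunit of the testis proteasome, had 0.425 to 4.40 CPM across the 12 libraries. The annotation puts an antisense gene over Psmb8 and Tap1 over Psmb9, and these libraries keep no strand.

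After a filter on low counts, 46 of the 50 genes were tested in every comparison, Psmb8, Psmb9, Psmb11 and Psme2b (at most 7 counts) being too low. A gene passed at an adjusted p under 0.05 over all genes tested. In Nr5a2 KD against control 2 of 46 members were lower, Psme1 and Psmg1, and none was higher, where 5.32% of all tested genes were lower and 3.72% higher. In dKD against control the same pair of genes was lower and none was higher, against 4.59% and 3.75% of all genes. In Klf5 KD against control no member passed, and 0% of all genes did in either direction. At an unadjusted p under 0.05 the count was 7 of 46 members, beside 8.47% of all genes, and DESeq2 called 0 members, beside 0.389% of all genes. The replicate block keeps only replicate numbers present in both groups, so against control replicates 1 and 2, here without Klf5 KD replicate 3. With it 7 of 46 members passed as higher, beside 1.07% of all genes. With no filter 2 did, beside 0.171%.

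The knockdowns were also compared with each other. In dKD against Klf5 KD 4 of 46 members were lower, Psme1, Psmg1, Psmc4 and Psmc3ip, and none was higher, beside 6.73% of all tested genes lower and 5.91% higher. With the mitochondrial share as a covariate Psmc1 and Psmd14 (log2 fold change 0.48, adjusted p = 0.0279, edgeR) passed as higher besides these 4, beside 9.25% of all genes higher. In Klf5 KD against Nr5a2 KD the same 4 members were higher and none lower, beside 6.52% and 6.05% of all genes. In dKD against Nr5a2 KD no member passed with edgeR or DESeq2, beside 0% of all genes with edgeR in either direction and 0.0307% with DESeq2. None of the members had an unadjusted p under 0.05, beside 3.43% of all genes. These comparisons share libraries with one another and with those against control, so their calls are not independent of each other.

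**Figure D2:**
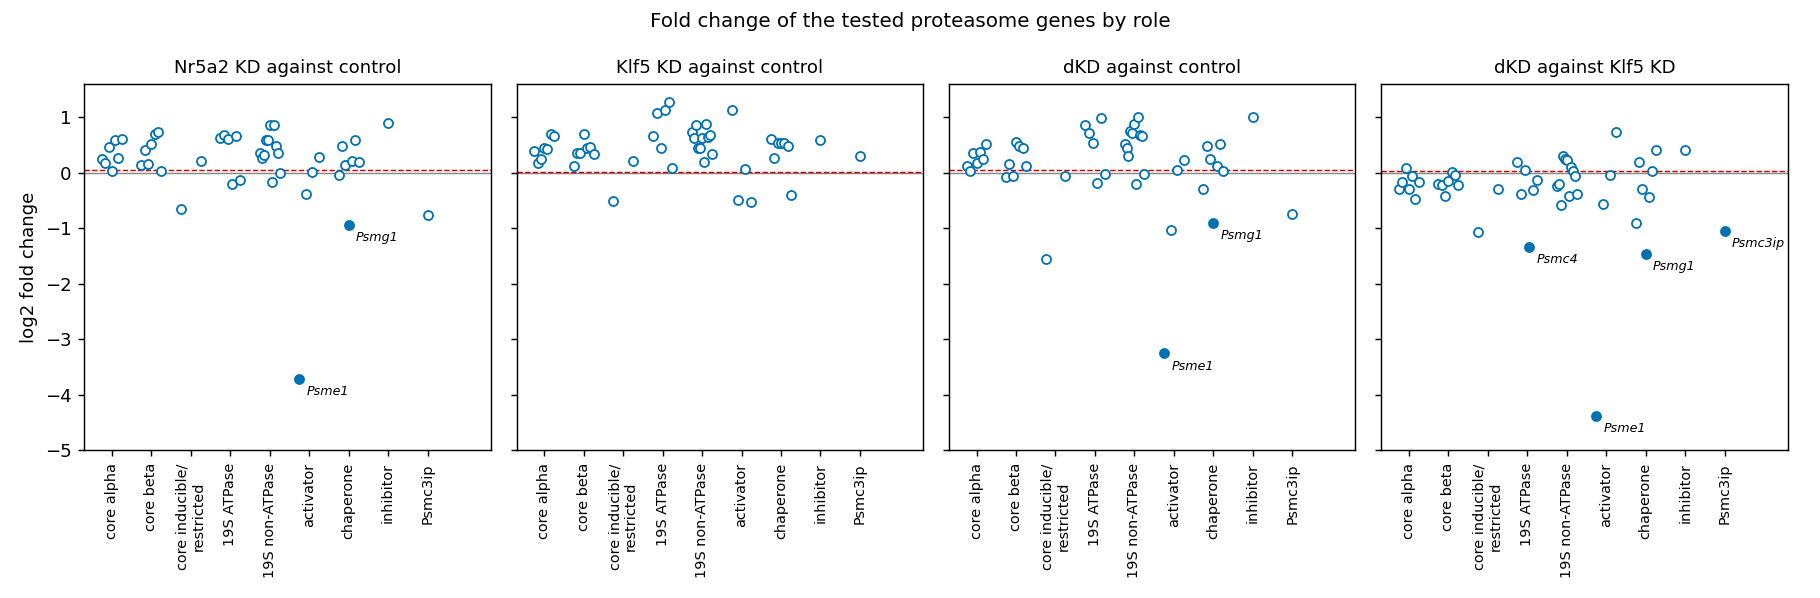
Log2 fold change of the tested proteasome genes by role in 4 comparisons, each point a gene. Filled points passed the test at an adjusted p under 0.05 and are named, open points did not, and the dashed line is the median of all tested genes. Psme1 lies at -3.71, -3.25 and -4.37 in the comparisons of Nr5a2 KD and dKD, far below every other member, and no point is filled in Klf5 KD against control.

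The promoters of the 4 called members and of Psme2 are shown because these genes differ in how they moved. A window from 250 bases before to 50 after each start (RefSeq, GRCm38.p6) was at hand for 42 of the 50 members, in 45 windows, and both strands were searched for TGACNNNGC (the antioxidant response element), TCAAGGNCA (NR5A2), GGGNGNGG (KLF), CCAAT (NF-Y) and CCGGAAG (ETS). The ETS letters were in 16 of the 45 windows, 35.6%, beside 8.86% of 32851 windows of all genes. The KLF letters were in 51.1% beside 49.5%, those of NF-Y in 33.3% beside 37.4% and those of the antioxidant response element in 13.3% beside 12.4%. The NR5A2 letters were in 2 windows, those of Psmc3ip and Psmd13, 4.44% beside 1.62%. The mean of Psmd13 was 146% of control in Nr5a2 KD and 162% in dKD, and it passed in neither, but passed as higher in dKD without dKD replicate 2. A match is a description of these letters and not a site, and windows of 1 gene overlap.

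The stretches below run 5′ to 3′ along the gene and are the longest run outside annotated exons in the 250 bases before its RefSeq start, and capitals mark the motif letters. That of Psme1 leaves out the last 134 bases before the start, and the others leave out 0 to 12. The Psme1 stretch also lies inside the gene as the files annotate it, which starts at chr14:55578123. It is therefore not sequence upstream of that annotated start. They are chr14:55578249-55578359 (plus strand, 111 bases) for Psme1, chr14:55591114-55591351 (minus, 238) for Psme2, chr16:95990961-95991210 (minus, 250) for Psmg1, chr7:28050102-28050342 (minus, 241) for Psmc4 and chr11:101095437-101095685 (minus, 249) for Psmc3ip.
Psme1: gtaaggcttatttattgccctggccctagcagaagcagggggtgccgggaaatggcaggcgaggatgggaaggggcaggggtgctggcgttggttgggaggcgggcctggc
Psme2: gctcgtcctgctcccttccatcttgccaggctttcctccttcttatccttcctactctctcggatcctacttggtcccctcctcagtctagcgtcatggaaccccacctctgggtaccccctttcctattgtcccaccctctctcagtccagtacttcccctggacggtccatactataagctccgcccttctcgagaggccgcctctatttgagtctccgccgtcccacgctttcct
Psmg1: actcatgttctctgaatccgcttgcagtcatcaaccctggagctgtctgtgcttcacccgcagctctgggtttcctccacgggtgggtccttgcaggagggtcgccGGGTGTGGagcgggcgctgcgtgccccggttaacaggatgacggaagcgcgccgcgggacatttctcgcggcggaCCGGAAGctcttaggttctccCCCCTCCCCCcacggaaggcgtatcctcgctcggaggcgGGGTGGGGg
Psmc4: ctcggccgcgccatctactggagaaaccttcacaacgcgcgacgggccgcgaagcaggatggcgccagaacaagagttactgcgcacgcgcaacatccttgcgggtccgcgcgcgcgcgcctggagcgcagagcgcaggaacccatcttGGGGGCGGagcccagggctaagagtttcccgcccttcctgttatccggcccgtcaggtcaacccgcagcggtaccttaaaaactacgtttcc
Psmc3ip: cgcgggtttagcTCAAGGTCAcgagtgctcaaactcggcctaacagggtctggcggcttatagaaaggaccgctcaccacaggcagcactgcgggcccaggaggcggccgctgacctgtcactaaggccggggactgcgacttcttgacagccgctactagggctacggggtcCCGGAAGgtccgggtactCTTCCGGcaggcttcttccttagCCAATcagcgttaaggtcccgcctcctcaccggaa
In Psmg1 the ETS letters begin 69 bases before the start and the KLF letters at 144, 48, 46 and 9 bases, the middle pair overlapping. Psmc4 holds KLF letters at 101 bases. Psmc3ip holds NR5A2 letters at 238 bases, ETS letters at 77 and 59 and NF-Y letters at 36. The stretches of Psme1 and Psme2 hold none of the 5 motifs, and their full windows hold KLF letters.

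Where groups with Nr5a2 siRNA were compared with groups without it, Psme1 was the member that changed most. It encodes the alpha subunit of the PA28 activator, the ring that opens the core to peptides and is known from antigen presentation. Psme1 stood at 34.02 and 24.2 CPM in control, at 2.83, 0.964 and 2.64 in Nr5a2 KD, at 6.64, 1.77, 1.89 and 1.65 in dKD, and at 107, 44.4 and 34.7 in Klf5 KD. Every library with Nr5a2 siRNA was below both control libraries, and every Klf5 KD library was above them. The mean was 7.37% of control in Nr5a2 KD and 10.3% in dKD. The log2 fold change was -3.71 ± 0.42 (SE, n = 3 and 2, adjusted p = 0.000533, edgeR) in Nr5a2 KD and -3.25 ± 0.49 (n = 4 and 2, adjusted p = 0.00399, edgeR) in dKD. In Klf5 KD it was 1.12 ± 0.45 against control, which did not pass (adjusted p = 0.565, edgeR). It passed with the replicate block (1.29, adjusted p = 0.0334), was 0.44 without Klf5 KD replicate 1 and was -0.19 with the mitochondrial share as a covariate. Directly compared, Psme1 was higher in Klf5 KD than in Nr5a2 KD, by 4.82 ± 0.50 on the log2 scale (adjusted p = 0.000135, edgeR), and lower in dKD than in Klf5 KD, by -4.37 ± 0.52 (adjusted p = 0.000377, edgeR). dKD and Nr5a2 KD differed by 0.45 ± 0.62 (adjusted p = 0.999, edgeR). The counts behind these values ran from 7 to 52.5 per library after Nr5a2 siRNA and from 180 to 1188 in the others. Without control replicate 1 the call in dKD against control was lost (adjusted p = 0.0505, log2 fold change -2.99), and without dKD replicate 1 the log2 fold change there was -4.00. The 6 immune markers, looked at because PA28 is abundant in immune cells, summed to 7.35 to 8.99 CPM in the control libraries and to 7.68 to 12.9 in those of Klf5 KD, and to 14.5 to 18.7 and 10.4 to 18.01 after Nr5a2 siRNA alone and after both. Of these Ptprc, Lyz2 and Laptm5 stayed under 1 CPM in every library, and Coro1a was higher in Nr5a2 KD (log2 fold change 3.29) and dKD (3.31) than in control, the groups in which Psme1 was lower. Their part in the Psme1 values was not tested.

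None of the other activators was called. Psme2, the beta subunit that forms the PA28 ring together with Psme1, stood at 20.005 and 19.1 CPM in control, at 20.4, 13.6 and 10.2 in Nr5a2 KD, at 14.9, 10.7 and 15.9 in Klf5 KD and at 8.47, 15.2, 5.91 and 7.68 in dKD. All 4 dKD libraries and all 3 Klf5 KD libraries were below the control libraries, yet the log2 fold change in dKD, -1.04 ± 0.35, did not pass (adjusted p = 0.0949, edgeR) and passed without dKD replicate 2 (-1.37, adjusted p = 0.0214) and with no filter (-1.05, adjusted p = 0.0403). Psme3, the nuclear PA28 gamma subunit, had a mean of 37.7 ± 2.09 CPM (SD) in control, 37.1 ± 10.1 in Nr5a2 KD, 39.4 ± 5.42 in Klf5 KD and 38.0 ± 7.51 in dKD. Psme4, the large PA200 activator linked to histone degradation, had means of 47.1 ± 2.49 CPM in control, 56.2 ± 8.55 in Nr5a2 KD, 32.8 ± 11.4 in Klf5 KD and 53.9 ± 11.4 in dKD. Neither passed in any comparison, and nor did Psme2. With the covariate over all 12 libraries Psme4 was lower in Klf5 KD than in Nr5a2 KD (log2 fold change -0.74, adjusted p = 0.0399, edgeR).

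Psme1 and Psme2 are neighbours that lie tail to tail. In the coordinates of the files (GRCm38), Psme1 covers chr14:55578123-55581529 on the plus strand and Psme2 covers chr14:55587441-55591113 on the minus strand, 5911 bases further on. Emc9, a subunit gene of the ER membrane protein complex, sits between them on the minus strand and shares 14 exon bases with the end of Psme1, 0.634% of its exon length. It was looked up because of this overlap. Emc9 stood at 8.56 and 5.10 CPM in control, at 2.12, 0.551 and 0.879 in Nr5a2 KD, at 0.695, 2.06, 1.77 and 1.06 in dKD and at 14.4, 8.68 and 9.39 in Klf5 KD. All 7 libraries with Nr5a2 siRNA were below the other 5, as for Psme1. Emc9 was lower in Nr5a2 KD (log2 fold change -2.46 ± 0.62, adjusted p = 0.0297, edgeR) and in dKD (-2.23 ± 0.52, adjusted p = 0.0237, edgeR) than in control. Without strand, reads over the shared bases cannot be assigned to one of the 2 genes.

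**Figure D3:**
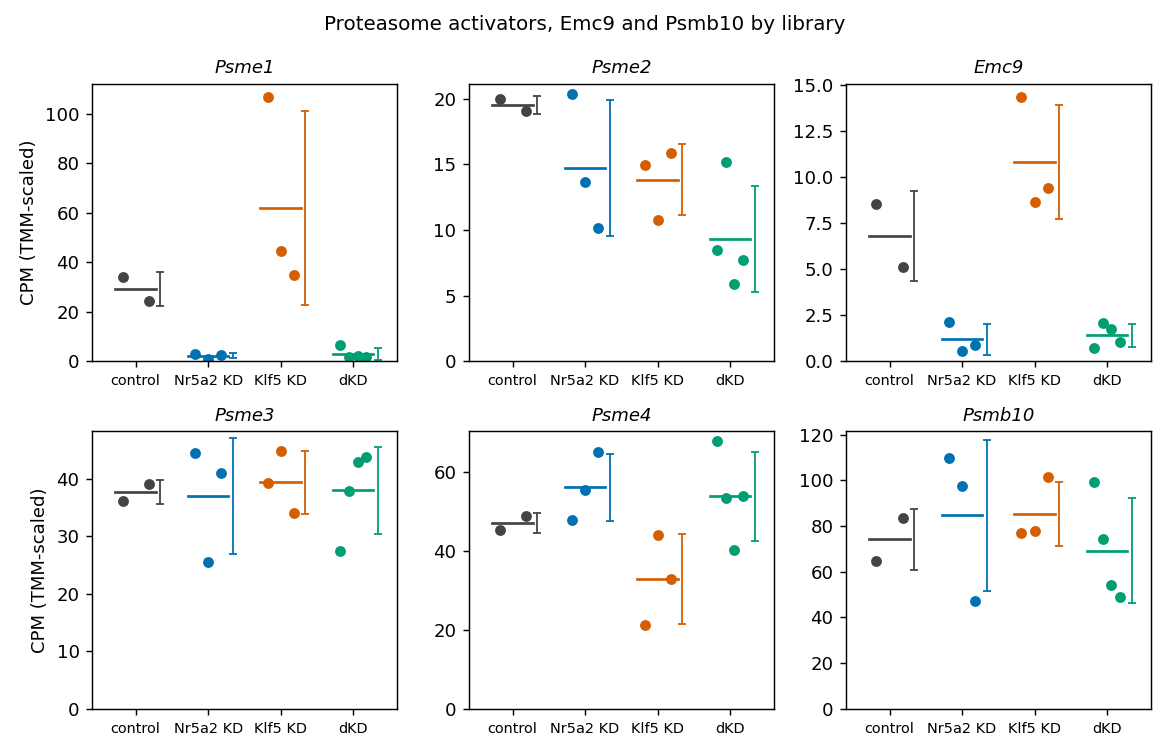
CPM of the 4 activators, of the neighbouring Emc9 and of Psmb10 in each library, with the group mean as a line and the SD as an error bar (n = 2, 3, 3 and 4). Psme1 is at 0.964 to 6.64 CPM in the 7 libraries of Nr5a2 KD and dKD and at 24.2 to 107 in the other 5, Emc9 separates the same libraries, and Psme3, Psme4 and Psmb10 do not.

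Among the chaperones Psmg1 was the 1 of 7 that passed. Psmg1 (PAC1) joins Psmg2 (PAC2) in the pair that starts the alpha ring. Psmg1 stood at 69.0 and 69.5 CPM in control, at 45.6, 25.8 and 35.3 in Nr5a2 KD, at 46.4, 26.5, 37.4 and 34.01 in dKD and at 125, 84.9 and 89.2 in Klf5 KD. As for Psme1, the 7 libraries with Nr5a2 siRNA were below control and the 3 Klf5 KD libraries above it. The mean was 51.3% of control in Nr5a2 KD (log2 fold change -0.94 ± 0.26, adjusted p = 0.0434, edgeR) and 52.1% in dKD (-0.90 ± 0.24, adjusted p = 0.0437, edgeR). It was 144% of control in Klf5 KD, which did not pass (0.54 ± 0.29, adjusted p = 0.625, edgeR). The difference between Klf5 KD and Nr5a2 KD passed, at 1.48 ± 0.29 (adjusted p = 0.00478, edgeR), as did that between dKD and Klf5 KD, at -1.46 ± 0.25 (adjusted p = 0.00271, edgeR). Both were lost with ERCC counts (adjusted p = 0.142 and 0.0543, edgeR), with log2 differences of 1.36 and -1.32. Among the 7 libraries of at least 10% mitochondrial counts, which hold 1 Klf5 KD library (replicate 3), the differences were 1.30 and -1.25.

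The calls of Psmg1 against control stood close to the threshold. In Nr5a2 KD the call did not hold when Nr5a2 KD replicate 2 (adjusted p = 0.0892) or either control library (0.225 for replicate 1, 0.242 for replicate 2) was left out, with log2 fold changes of -0.75 to -0.96. In dKD it did not hold without dKD replicate 2 (adjusted p = 0.0606), 3 (0.0674) or 4 (0.0987), or without either control library (0.233 for replicate 1, 0.264 for replicate 2), with log2 fold changes of -0.77 to -0.93. Scaled by ERCC spike-in RNA, which moved the median of all genes to 0.82 and 0.84, the fold changes of Psmg1 were -0.13 and -0.10 and did not pass. Nor did the calls hold in a fit that included the mitochondrial share (adjusted p = 0.0591 and 0.0645), when scaled by total counts (0.0747 and 0.0741) or among the 7 libraries of at least 10% mitochondrial counts (0.0847 and 0.110), or in Nr5a2 KD with all 12 libraries in one fit (0.0567). In all they were lost in 8 of 15 settings in Nr5a2 KD and 9 of 16 in dKD.

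The partner of Psmg1 was not called. Psmg2 stood at 131 and 115 CPM in control, 167, 109 and 141 in Nr5a2 KD, 246, 147 and 139 in Klf5 KD and 105, 88.2, 187 and 140 in dKD. All 3 Klf5 KD libraries were above both control libraries, the other groups overlap, and the log2 fold changes of 0.20 ± 0.24, 0.54 ± 0.31 and 0.13 ± 0.30 against control did not pass. Psmg3 and Psmg4, which form the other chaperone pair of the alpha ring, ran from 43.7 to 83.7 and from 14.6 to 33.6 CPM over the 12 libraries. Of the chaperones of the 19S ATPase ring, Psmd5 ran from 42.0 to 99.6 CPM, Psmd9 from 23.0 to 57.8 and Psmd10, the oncoprotein gankyrin, from 7.52 to 53.5. None of these 6 passed in any comparison, but Psmd10 was lower in dKD than in Klf5 KD with no filter (log2 fold change -0.94, adjusted p = 0.0312, edgeR) and Psmg3 was higher in dKD than in control with ERCC counts (1.36, adjusted p = 0.0355).

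Psmc4 and Psmc3ip differed between the knockdowns. Psmc4, an ATPase of the 19S ring, stood at 93.7 and 101.98 CPM in control, at 67.7, 50.3 and 129 in Nr5a2 KD, at 335, 182 and 119 in Klf5 KD and at 56.0, 40.0, 130 and 108 in dKD. All 3 Klf5 KD libraries were above control, but replicate 3, at 119 CPM, was below Nr5a2 KD replicate 3 and dKD replicate 3. Psmc4 was lower in dKD than in Klf5 KD (log2 fold change -1.34 ± 0.40, adjusted p = 0.0443, edgeR) and higher in Klf5 KD than in Nr5a2 KD (1.35 ± 0.40, adjusted p = 0.0404, edgeR). With the mitochondrial share as a covariate the same differences were -1.06 (adjusted p = 0.00144) and 1.02 (adjusted p = 0.00218). Against control Psmc4 did not pass, at -0.21 in Nr5a2 KD, 1.13 in Klf5 KD and -0.18 in dKD, but with the covariate it was lower in Nr5a2 KD (-1.09, adjusted p = 0.0176) and dKD (-1.07, adjusted p = 0.0177, edgeR). Among the 7 libraries of at least 10% mitochondrial counts it was also lower in dKD (-1.01, adjusted p = 0.023), as it was with the replicate block (-1.02, adjusted p = 0.00694), where it was higher in Klf5 KD (1.35, adjusted p = 0.00683). Against Klf5 KD the call in dKD was lost without Klf5 KD replicate 1 (adjusted p = 0.268, log2 fold change -0.81) or 2 (0.104), and without dKD replicate 1 (0.0986), 2 (0.101) or 4 (0.0565). It was also lost with the replicate block (0.123), total counts (0.0879) and ERCC counts (0.237). Against Nr5a2 KD the call in Klf5 KD was lost without Klf5 KD replicate 1 (adjusted p = 0.165, log2 fold change 0.86) or 2 (0.0776). It was also lost without Nr5a2 KD replicate 1 (0.151) or 2 (0.160), and with all 12 libraries in one fit (0.0518), total counts (0.0841) and ERCC counts (0.333). Among the 7 libraries, with 1 Klf5 KD library, the log2 difference was 0.98.

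Psmc3ip matches the symbol but encodes HOP2, a partner of meiotic recombinases, and is no subunit. It stood at 73.9 and 47.5 CPM in control, at 36.6, 26.7 and 41.8 in Nr5a2 KD, at 93.2, 66.0 and 61.7 in Klf5 KD and at 39.2, 28.4, 41.4 and 32.1 in dKD. The 7 libraries with Nr5a2 siRNA were below the other 5. It was lower in dKD than in Klf5 KD (log2 fold change -1.05 ± 0.24, adjusted p = 0.0123, edgeR) and higher in Klf5 KD than in Nr5a2 KD (1.06 ± 0.28, adjusted p = 0.023, edgeR). Against control it did not pass in Nr5a2 KD (-0.76 ± 0.28, adjusted p = 0.111) or dKD (-0.74 ± 0.26, adjusted p = 0.0975, edgeR). It passed in Nr5a2 KD without replicate 3 of that group (-0.91, adjusted p = 0.0449), and in both with the replicate block (adjusted p = 0.0283 and 0.0349) and with the covariate over all 12 libraries (0.024 and 0.0185). The calls between the knockdowns were lost without Klf5 KD replicate 1 (adjusted p = 0.0572 and 0.0555) and with ERCC counts (0.191 and 0.422). The first was also lost with the replicate block (0.104), and the second with total counts (0.0615) and without Nr5a2 KD replicate 1 (0.0808) or 2 (0.119). Among the 7 libraries, with 1 Klf5 KD library, the log2 differences were -0.83 and 0.93. Mlx, an antisense neighbour, shares 21.2% of the exon bases of Psmc3ip and stood at 6.97 to 20.6 CPM.

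**Figure D4:**
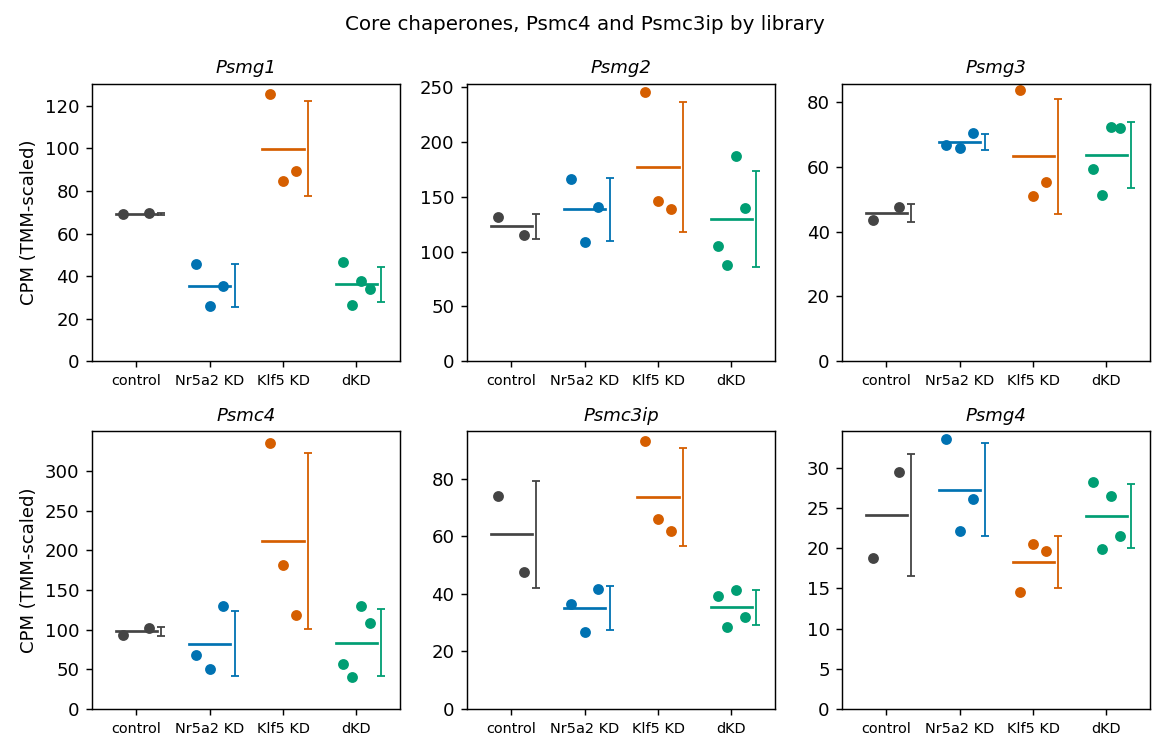
CPM of the alpha ring chaperones Psmg1 to Psmg4, of the 19S ATPase gene Psmc4 and of Psmc3ip in each library, with the group mean as a line and the SD as an error bar (n = 2, 3, 3 and 4). Psmg1 is at 25.8 to 46.4 CPM in Nr5a2 KD and dKD and at 69.0 to 125 in control and Klf5 KD, while Psmg2 in Nr5a2 KD and dKD overlaps both control and Klf5 KD.

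The 17 genes of the 19S particle and the 14 of the core had 1 called gene, Psmc4, over all comparisons. Their medians against control were above 0, though not in every alternative. In Nr5a2 KD the median log2 fold change was 0.48 for the 19S particle and 0.33 for the core, beside 0.04 for all tested genes. In Klf5 KD these were 0.64, 0.40 and 0.00, and in dKD 0.65, 0.21 and 0.05. Over all 46 members 36, 42 and 33 were above 0 in the 3 comparisons, beside 52.6, 50.5 and 53.1% of all tested genes. The median over all members in Nr5a2 KD was 0.27, and 0.13 without Nr5a2 KD replicate 3, with 28 above 0. In Klf5 KD it was 0.45, and 0.16 without Klf5 KD replicate 1, with 37 above 0. In dKD it was 0.25, and 0.16 without dKD replicate 3 and 0.19 without dKD replicate 4. With the replicate block, which leaves replicates 1 and 2 of each group, the median of the 19S genes was -0.04, 0.88 and -0.09 in the 3 comparisons. That of all members was 0.13, 0.60 and -0.04. The libraries dropped are Nr5a2 KD replicate 3 and dKD replicates 3 and 4, of low mitochondrial share, and Klf5 KD replicate 3. In these medians the block and the loss of those libraries cannot be told apart. These comparisons share their 2 control libraries. Single genes of the 19S particle ran from -0.21 (Psmc4) to 0.85 (Psmd2) in Nr5a2 KD, from 0.08 (Psmc6) to 1.27 (Psmc5) in Klf5 KD and from -0.20 (Psmd3) to 1.00 (Psmd4, a ubiquitin receptor) in dKD. Those of the core ran from 0.03 (Psma4) to 0.72 (Psmb6), from 0.12 (Psmb1) to 0.69 (Psma6) and from -0.07 (Psmb1) to 0.55 (Psmb4). The SEs of these values ran from 0.19 to 0.49. With no filter Psmd4 passed as higher in Nr5a2 KD, Psmc4 and Psmc5 in Klf5 KD and Psmc1, Psmc5, Psmd2, Psmd4 and Psmd14 in dKD, and Psmd4 did in dKD with DESeq2. With the replicate block Psma6, Psmc2, Psmc4, Psmc5, Psmd4 and Psmd12 did in Klf5 KD.

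The level of the 19S genes differed between libraries of low and high mitochondrial share, a split noticed after the values were seen. Summed over the 17 genes, the 19S particle stood at 2926 and 2561 CPM in control, at 2853, 2381 and 5017 in Nr5a2 KD, at 6116, 3825 and 2672 in Klf5 KD and at 2522, 2590, 5200 and 4710 in dKD. The 5 libraries with under 10% mitochondrial counts were all above the other 7, with means of 4974 and 2644 CPM. The 20S core summed to 9583 to 13976 CPM in these 5 and to 7871 to 11645 in the other 7, which overlap. The ratio of the summed 19S to the summed 20S level was 0.398 to 0.491 in the 5 libraries and 0.245 to 0.338 in the 7. Between groups the mitochondrial share and the ratio were put to an exact permutation test (two-sided, the one-sided p doubled). With so few libraries none of the 6 comparisons could pass this test, so no conclusion is drawn from it. The lowest p was 0.133 for the share (adjusted p = 0.4) and 0.343 for the ratio (adjusted p = 1). For the share the p against control was the lowest the test can give, 0.133 in dKD and 0.2 in Nr5a2 KD and Klf5 KD. Whether the share has a part in the 19S levels was not tested.

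**Figure D5:**
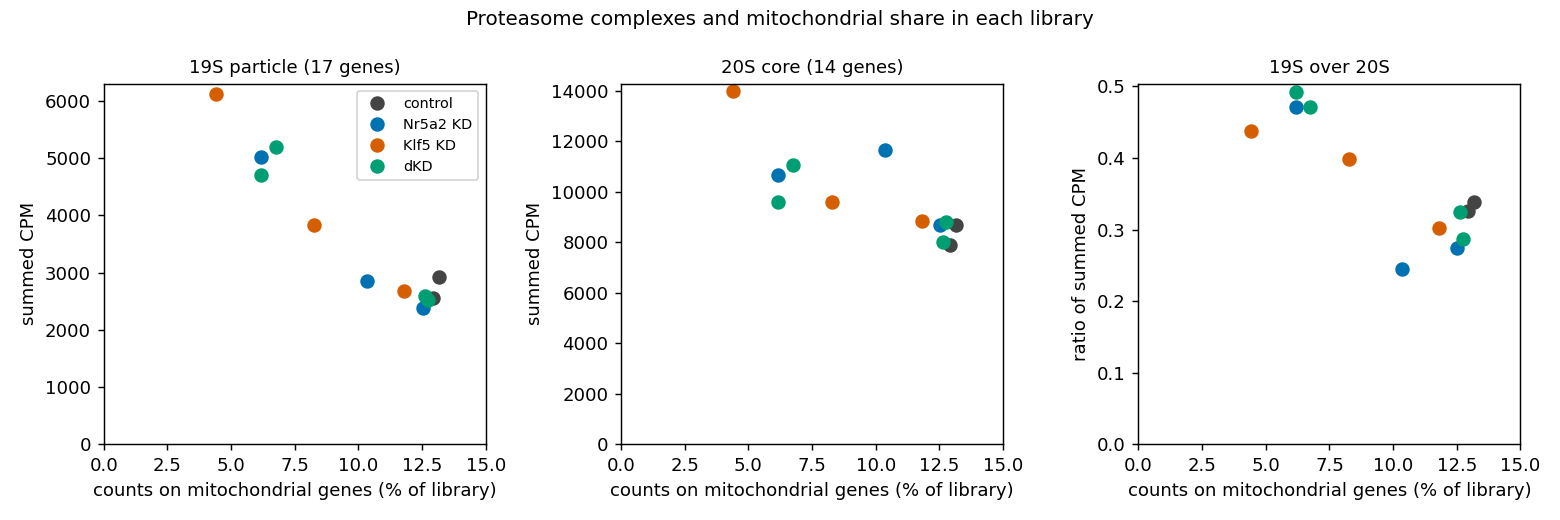
Summed CPM of the 17 genes of the 19S particle, of the 14 genes of the constitutive core, and their ratio, against the share of counts on mitochondrial genes, each point a library coloured by group. The 5 libraries left of 10% lie between 3825 and 6116 CPM for the 19S particle and the other 7 between 2381 and 2926, while the core overlaps.

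Within the libraries that received Nr5a2 siRNA the same split was followed gene by gene, as a description with no test. The 3 libraries with a low mitochondrial share (Nr5a2 KD replicate 3, dKD replicates 3 and 4) were all above the other 4 for 25 of the 47 members with enough counts, beside 12% of 14830 genes. These 25 were 16 of 17 in the 19S particle, 4 of 14 in the constitutive core, 4 of 7 among the chaperones, 0 of 4 among the activators, and Psmf1. Over all 12 libraries, the 5 of low share were all above the other 7 for 15 of 47 members, beside 3% of all genes. These 15 were 11 of 17 in the 19S particle, 3 of 14 in the core and 1 of 7 among the chaperones. Psmc5, a 19S ATPase, stood at 144, 109 and 376 CPM in Nr5a2 KD and at 128, 135, 430 and 346 in dKD, beside 147 and 126 in control and 579, 262 and 130 in Klf5 KD. Its mean was 384 CPM in the 3 libraries and 129 in the 4, 2.98 times as high, and the 4 lay close to control. Psmc2 and Psmc1, ATPases of the same ring, were 2.60 and 2.38 times as high, and Psmd14, the deubiquitinase of the lid, 2.27 times (624 and 274 CPM). Psmd14 stood at 296 and 256 CPM in control, at 305, 259 and 648 in Nr5a2 KD, at 537, 353 and 221 in Klf5 KD and at 283, 250.01, 645 and 578 in dKD, and the single high Nr5a2 KD library is again replicate 3. Psmc6, the least different of the ATPases, was 1.21 times as high, and Psmd3, a lid subunit, was the 1 of 17 that overlapped, at 0.993 times. In the core Psmb6, the caspase-like subunit, stood at 0.999 times, Psmb5, the chymotrypsin-like subunit, at 0.982 and Psmb7 at 1.01. Psmf1, an inhibitor of the core also known as PI31, was 1.74 times as high, and Psmb10 was the 1 member lower in all 3 libraries, at 0.527 times.

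The medians of the 19S genes against control were below 0 when this share was a covariate. In that fit the median log2 fold change of the 19S genes was -0.28 in Nr5a2 KD, -0.26 in Klf5 KD and -0.11 in dKD, and that of the core 0.20, -0.13 and 0.06. Among the 7 libraries of at least 10% it was -0.06, -0.02 and -0.03 for the 19S genes and 0.29, 0.08 and 0.07 for the core. The Klf5 KD medians there rest on 1 library, replicate 3. In the ERCC scaling the median of the members was 1.13, 1.17 and 1.09 in the 3 comparisons, beside 0.82, 0.66 and 0.84 for all genes. In that scaling 15 members passed as higher and 1, Psme1, as lower in dKD against control, beside 21.2% of all genes higher and 1.33% lower. Psme1 was lower in Nr5a2 KD and dKD than in control with the covariate (log2 fold change -4.29, adjusted p = 0.00213, and -2.68, adjusted p = 0.0101, edgeR) and among the 7 libraries (-3.88, adjusted p = 0.00193, and -2.77, adjusted p = 0.00966).

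The protease subunits of the core were not called. Psmb5 stood at 148 and 121 CPM in control and at 220, 214 and 205 in Nr5a2 KD, without overlap, with a log2 fold change of 0.69 ± 0.22 (adjusted p = 0.0701, edgeR). Psmb6 stood at 729 and 597 CPM in control and at 1278, 885 and 1060 in Nr5a2 KD (0.72 ± 0.23, adjusted p = 0.079, edgeR). Both passed with DESeq2 (adjusted p = 0.0256 and 0.0285) and without Nr5a2 KD replicate 3 (0.0249 and 0.033), with the replicate block (0.0335 and 0.0226) and with total counts (0.0469 and 0.0413). Psmb5 also passed among the 7 libraries (0.0364) and Psmb6 with ERCC counts (0.0424), and both in dKD with ERCC counts (0.0317 and 0.032). Psmb7 differed from control by 0.04 ± 0.21. Mir686 covers 12.1% of the exon bases of Psmb5 and Nek6 11.8% of those of Psmb7, so their counts share reads with other genes. Psmf1 stood at 29.6 and 15.7 CPM in control and at 22.0 to 63.8 in dKD (1.00 ± 0.41, adjusted p = 0.157), and passed there without dKD replicate 2 (1.23, adjusted p = 0.0481, edgeR), with no filter (1.00, adjusted p = 0.0145) and with ERCC counts (1.84, adjusted p = 0.0408). With no filter it also passed in Nr5a2 KD (0.89, adjusted p = 0.0424).

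Other genes of the pathway were called in a few cases. Of 11 tested genes that bind or modify the proteasome, Zfand5, which encodes a stimulator of the 26S proteasome, was lower in Nr5a2 KD (183 to 247 CPM, beside 403 and 412 in control, log2 fold change -0.95 ± 0.22, adjusted p = 0.0202, edgeR) and no other passed. Of 15 genes for ubiquitin, its activation and its shuttles, Ubqln4, a shuttle receptor, was higher in Nr5a2 KD (1.90 ± 0.52, adjusted p = 0.0409) and dKD (2.13 ± 0.44, adjusted p = 0.0144, edgeR), at 5.65 to 9.45 CPM in their 7 libraries and 1.34 to 2.42 in control. Uba6, an activating enzyme, was higher in dKD than in Klf5 KD (1.05 ± 0.28, adjusted p = 0.0251) and lower in Klf5 KD than in Nr5a2 KD (-1.20 ± 0.31, adjusted p = 0.0212, edgeR), as was Ubqln4 (2.01 and -1.80). None of the 6 genes of the NRF1 axis, which induces proteasome genes when the proteasome is impaired, passed in any comparison, with medians from -0.06 to 0.04. Of 7 antigen presentation genes 3 were tested, and B2m, the light chain of MHC class I, was higher in Nr5a2 KD than in control (0.80 ± 0.22, adjusted p = 0.0404, edgeR) and lower in Klf5 KD than in Nr5a2 KD (-0.97 ± 0.26, adjusted p = 0.0241, edgeR).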

How the data were processed

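RNA-seq libraries were made by the authors with SMART-seq v4 from polyadenylated RNA, without strand or molecular identifiers. Per the labels, reads were trimmed with Trim Galore 0.6.2, mapped with STAR to GRCm38 and counted over exons with featureCounts 2.0.1. The authors deposited estimated counts for each gene, since a read pair over several genes was split among them, and reads with several matches were not counted, so near-identical copies and overlapping genes are uncertain. The file headers name GRCm38 where the study's methods write GRCm30. The study's methods name a NovaSeq (Illumina) for the RNA-seq libraries, while the labels do not say which library ran on which sequencer.

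Estimated counts were rounded and tested per comparison with edgeR 4.0.16 (glmQLFit, glmQLFTest, TMM factors, filterByExpr with min.count 10 and min.total.count 15) in R 4.3.3, with Benjamini-Hochberg adjustment over all genes tested. A gene passed at an adjusted p under 0.05, with no fold minimum. The fit was tested on simulated data. CPM used TMM factors over the 12 libraries. Spike-in and H2B-EGFP rows stayed out of library sizes (ERCC 0.204 to 0.459% of counts). The depth of 6676683 to 12560926 counts leaves genes of few counts with a large counting error. Groups came from the treatment labels, and nothing states that libraries came from separate collections, so p-values measure the spread between these libraries. Alternatives were DESeq2 1.42.0, its size factors, total or ERCC counts, no filter, all 12 libraries, a replicate block, a 2-fold minimum, the mitochondrial share as a covariate and each library left out. The 7 libraries of at least 10% mitochondrial counts, and the covariate over all 12, were added after seeing the data. The replicate block kept only replicate numbers present in both groups, and these 7 libraries hold 1 Klf5 KD library. Same-numbered libraries of Nr5a2 KD and dKD deviated together (correlations 0.13, 0.221 and 0.254), but no label states that they were paired. Replicate 3 has a low mitochondrial share in both.

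Members, lists and tests were chosen with earlier results of these data known. Named genes are the called members, the protease, inducible, activator, chaperone and inhibitor genes, Psmd14 and Psmc3ip, the highest and lowest per length, called genes of the other lists, the targets, and, chosen after their values were seen, overlapping genes and Psmc1, Psmc2, Psmc5 and other single 19S and core genes. Gene names came from GENCODE M21 and promoters from RefSeq. The chromatin and imaging experiments were not analysed here.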

Additional observations from a re-analysis of the deposited data

Results flagged for a closer look

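Psme1 in dKD had 1 library apart from the others. Replicate 1 stood at 6.64 CPM where the other 3 stood at 1.65 to 1.89, a gap of 0.953 of the whole range, above Dixon's critical value for 4 libraries. That value flags about 1 in 20 such groups by chance, and 1 of 46 members exceeded it. Without that library the log2 fold change against control was -4.00 (adjusted p = 0.000265, edgeR).

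A few members differed between Nr5a2 siRNA and Klf5 siRNA. The test of the difference, Klf5 KD against Nr5a2 KD with edgeR, passed for 4 of 46 members, all higher in Klf5 KD, beside 6.52% of all genes higher, with log2 differences of 4.82 for Psme1 (adjusted p = 0.000135), 1.48 for Psmg1 (adjusted p = 0.00478), 1.06 for Psmc3ip (adjusted p = 0.023) and 1.35 for Psmc4 (adjusted p = 0.0404). In Psme1 and Psmg1 every Nr5a2 KD library was below both control libraries and every Klf5 KD library above them.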

How the results depend on the processing

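The number of members passing was 2, 0 and 2 in Nr5a2 KD, Klf5 KD and dKD against control, 4 in dKD against Klf5 KD, 0 in dKD against Nr5a2 KD and 4 in Klf5 KD against Nr5a2 KD. In that order of the first 3, DESeq2 gave 4 (2 higher), 0 and 3 (1 higher), no filter 4 (2 higher), 2 (both higher) and 9 (6 higher), a 2-fold minimum 1, 0 and 1, and the covariate over all 12 libraries 4, 0 and 4 (none higher). Of all genes, DESeq2 called 11.6, 0.389 and 12.9%, no filter 6.62, 0.432 and 7.08%, a 2-fold minimum 3.45, 0 and 3.38% as higher and 4.42, 0 and 3.85% as lower, and that covariate 8.87, 0.00674 and 9.28%. ERCC counts gave 16 (15 higher) in dKD against control, where 21.2% of all genes were higher, and 1 in either comparison between the knockdowns that had 4 (7.29 and 5.72% of all genes). Total counts gave 3 (2 higher) in Nr5a2 KD against control, 1 in dKD against control and 2 in Klf5 KD against Nr5a2 KD (7.96, 9.06 and 12.5%). All 12 libraries in one fit gave 1 in Nr5a2 KD against control (6.41%). The 7 libraries of at least 10% mitochondrial counts hold 1 Klf5 KD library, so no count is given there for comparisons with Klf5 KD. With the replicate block the counts against control were 5 (2 higher), 7 (all higher) and 4 (none higher), and 2 in dKD against Klf5 KD, beside 9.67, 2.41, 10.5 and 4.16% of all genes, and the block moved no other count by over 1.5 times. In dKD against Nr5a2 KD, where same-numbered libraries deviated together, the replicate block gave 0, without dKD replicate 4. For the other comparisons same-numbered libraries correlated from -0.203 to 0.0594, so they share a number only. Leaving out 1 library gave 1 to 5, 0 and 0 to 4 against control, 2 to 4 in dKD against Klf5 KD, 0 in dKD against Nr5a2 KD and 2 to 4 in Klf5 KD against Nr5a2 KD. The share of all genes called then ran from 2.1 to 10.8%, 0 to 0.127%, 0.866 to 11.3%, 6.91 to 12.1%, 0 to 0.0239% and 7.02 to 11.1%. The counts were 1 without either control library (2.17 and 2.1% of all genes) or Nr5a2 KD replicate 2 (8.41%) and 5 without Nr5a2 KD replicate 3 (10.8%) in Nr5a2 KD against control. In dKD against control they were 0 without control replicate 1 (0.866%), 1 without control replicate 2 (1.13%) or dKD replicate 3 (6.05%) or 4 (5.39%), and 4 without dKD replicate 2 (8.6%). They were 2 without Klf5 KD replicate 1 in dKD against Klf5 KD (8.16%), and 2 without that library (10.6%) or Nr5a2 KD replicate 1 (7.82%) or 2 (7.36%) in Klf5 KD against Nr5a2 KD. Where 1 control library was left, it is assumed to vary like the other group. Among the 7 libraries Psmg1 and Psmc3ip were lower in dKD than in the 1 Klf5 KD library (log2 fold change -1.25 and -0.83). The cause of these changes was not tested.

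The direction of the 12 called differences was the same under every alternative, and Psme1 passed in each but 1 of them. The depth limits the genes near 0, which were too low to test.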
